A study of Mus musculus with 5 samples.

Results

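Spermatozoa were compared with spermatogonia, the cells at the far ends of male germ cell differentiation after birth, across 4 classes of small RNA: miRNAs, snoRNAs, entries listed as piRNAs and entries listed as endo-siRNAs. The pair took 2 of the 5 libraries and 8 of the tables of the series, and every entry with at least 100 reads over the pair was compared. They were 471 of 1316 miRNA entries listed for the pair, 115 of 186 snoRNA entries, 7071 of 176653 piRNA entries and 6137 of 148365 endo-siRNA entries. In every count below, an entry is counted as higher or lower when it was at least 4-fold more or less abundant in spermatozoa than in spermatogonia. At the edge of the minimum of 100 reads stood miR-26a-2-3p, inside with 96 reads in spermatogonia and 4 in spermatozoa, and miR-879-5p, outside with 96 and 3.

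Both libraries came from CD-1 mice. The spermatogonia were taken from testes at 8.5 days after birth, in a preparation in which somatic cells were left to settle and stick to the dish for 3 to 4 hours. The labels state that Stra8 was present and that Fn1, a gene of somatic cells, was absent; these mRNAs were not measured here. The spermatozoa came from the cauda epididymis and vas deferens of mature males, through a Percoll gradient of 90% and 45% and a hypo-osmotic shock. Total RNA was extracted with TRIzol and reads of 18 to 32 nucleotides were kept, per the labels' protocols. How many animals each library holds, and whether they were pooled, is not given in the sources used here. The other libraries of the series are primordial germ cells of CD-1 fetuses (13.5 days post coitum) and oocytes and zygotes of C57BL/6 females. The deposited tables held 26344449 reads for spermatogonia and 21827067 for spermatozoa. There was 1 library a side, so no difference below has a replicate check, a test or an SD; intervals are exact 95% intervals and cover counting error only, since PCR copies are not independent molecules. Age, tissue of origin, purification and cell type differ together between the libraries and cannot be told apart, and fewer cells of a type cannot be told apart from less RNA per cell.

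MicroRNAs are short RNAs cut from either arm of a hairpin (5p and 3p); loaded on Argonaute proteins, they repress messenger RNAs that pair with their seed, the bases 2 to 8. piRNAs guide PIWI proteins, which silence transposons in the germ line and act on transcripts during meiosis and spermatid formation, and endo-siRNAs are products of Dicer, which makes them from long paired RNA. snoRNAs guide the methylation (C/D box) and pseudouridylation (H/ACA box) of ribosomal RNA in the nucleolus, and a fragment of one is counted under its name. Spermatozoa have closed down transcription and have shed most of their cytoplasm, and they take up RNA from the epididymis on their way.

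The miRNAs on which the comparison turns fall into groups that share a seed. Mature sequences from RefSeq (GRCm38.p6, the assembly also called mm10) are printed from 5′ to 3′ with the seed in capitals. The first set is higher in spermatozoa and holds miR-34 and miR-449, both arms of the miR-34b hairpin among them, and the miR-200 family with its 2 seeds.
miR-34b-5p: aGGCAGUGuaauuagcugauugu
miR-449a-5p: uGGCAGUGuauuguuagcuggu
miR-34a-5p: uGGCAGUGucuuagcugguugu
miR-34b-3p: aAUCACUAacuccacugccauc
miR-34c-3p: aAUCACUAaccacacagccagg
miR-141-3p: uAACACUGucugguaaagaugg
miR-200a-3p: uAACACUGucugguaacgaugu
miR-200b-3p: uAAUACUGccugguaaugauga
miR-200c-3p: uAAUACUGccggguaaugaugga
miR-429-3p: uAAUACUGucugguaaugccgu
miR-34a-5p is shown with them because it carries the seed of miR-34b-5p and miR-449a-5p but differed less between the libraries.

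The second set is lower in spermatozoa and holds the AAGUGCU seed of the miR-290 cluster, the ACCCGUA seed of miR-99 and miR-100, the ACAUUCA seed of miR-181, miR-202, and miR-322 and miR-503 of the X chromosome.
miR-291a-3p: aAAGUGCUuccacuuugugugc
miR-294-3p: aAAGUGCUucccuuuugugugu
miR-295-3p: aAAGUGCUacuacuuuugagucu
miR-99b-5p: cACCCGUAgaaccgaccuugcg
miR-100-5p: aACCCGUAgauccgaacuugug
miR-181a-5p: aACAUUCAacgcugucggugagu
miR-181b-5p: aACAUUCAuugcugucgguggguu
miR-202-5p: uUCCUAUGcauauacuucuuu
miR-322-5p: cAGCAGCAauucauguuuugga
miR-322-3p: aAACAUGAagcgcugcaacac
miR-503-5p: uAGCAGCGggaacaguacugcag

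The make-up of the libraries differed first. Of all reads in the 4 classes, miRNAs took 40.5% in spermatogonia and 5.57% in spermatozoa, snoRNAs 19.4% and 4.71%, and endo-siRNAs 13.0% and 6.28%. The piRNA entries took 27.1% (27.1 to 27.2) in spermatogonia and 83.4% (83.4 to 83.5) in spermatozoa. Reads were therefore scaled to 1000000 reads of their own class in the library (RPM), and a log2 ratio of a class moves by 1 constant if the 4 classes together are used instead: -2.86 for miRNAs, -2.04 for snoRNAs, 1.62 for piRNAs and -1.05 for endo-siRNAs. The plot of class shares shows the 3 smaller classes of spermatozoa beside the piRNA share.

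**Figure D1:**
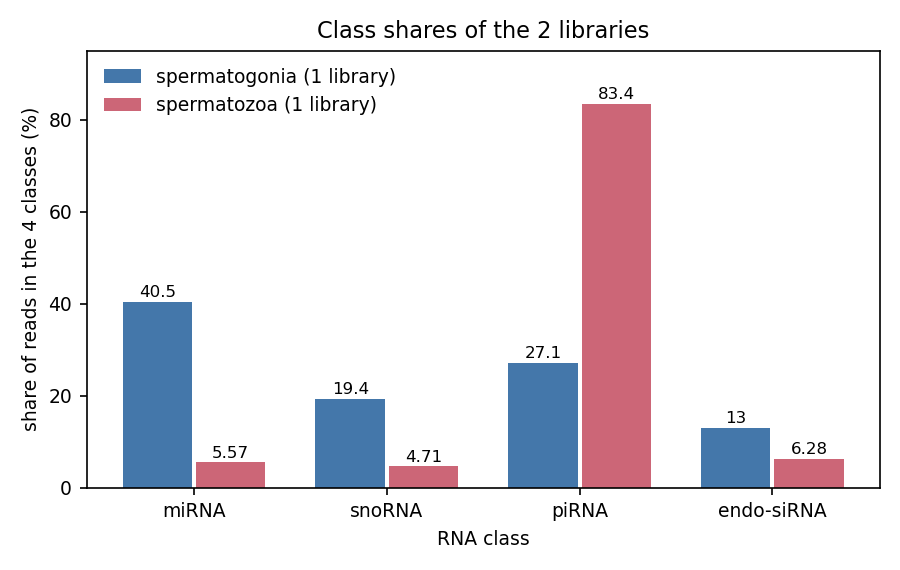
Share of the reads of the 4 classes (%, y axis) by RNA class (x axis), 1 bar per library. The piRNA bar is 27.1% in spermatogonia and 83.4% in spermatozoa, while each other class has a lower bar in spermatozoa.

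Of 471 measured miRNAs, 70 (14.9%) were higher in spermatozoa, 175 (37.2%) were lower and 226 lay between. Over all 4 classes 18 were higher against 358 lower, and the deposited normalised column gave 25 against 312. The median log2 ratio was -1.10 and the Spearman correlation across miRNAs 0.60, a description over 471 entries that share 2 libraries. An entry can reach 100 reads through 1 library alone, which by itself favours large ratios. Of the measured miRNAs 38 had no read in spermatozoa and 1 had none in spermatogonia. The minimum also favours 1 direction, since spermatogonia had 10657432 miRNA reads and spermatozoa 1216358. An entry of a given RPM passes more easily when that level is in spermatogonia. This tilts the counts and medians of miRNAs and their lists toward lower. With a minimum of 500 reads 51 of 305 were higher and 115 lower. Of the 10 most abundant miRNAs of each library, 3 were the same: miR-143-3p, let-7f-5p and miR-148a-3p. The plot of miRNA levels shows the groups that are described next.

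**Figure D2:**
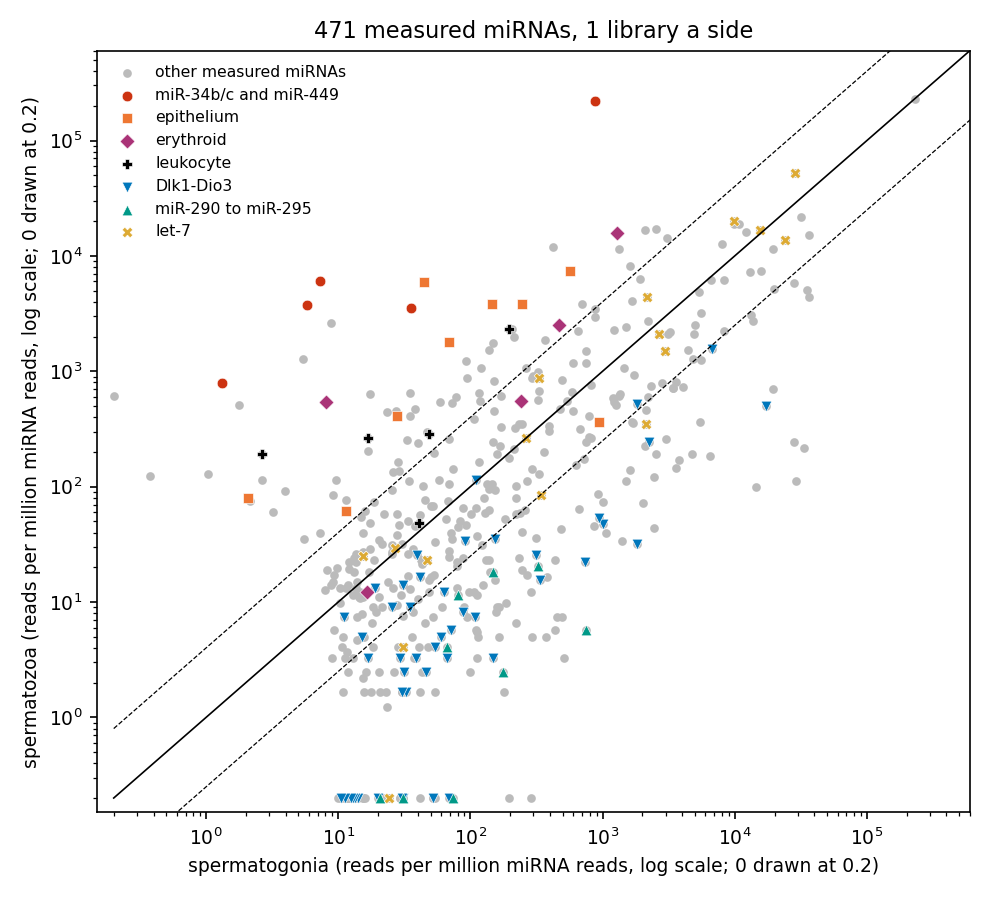
RPM of miRNAs in spermatogonia (x) and spermatozoa (y), both axes on a log scale, 1 point per miRNA; the solid line marks equal levels and the dashed lines 4-fold. The miR-34 and miR-449 points lie far above the upper dashed line, most Dlk1-Dio3 and all miR-290 cluster points lie below the lower one, and the most abundant let-7 members lie between.

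miR-34b, miR-34c and miR-449, a family known for its role in late spermatogenesis and in multiciliated cells, had the highest median ratio of the lists. Its leading member, miR-34c-5p, stood at 874 RPM in spermatogonia and 221799 RPM in spermatozoa, a 254-fold difference (249 to 259), and reached nearly the level of miR-143-3p there. miR-34b-3p went from 7.32 to 6083 RPM (831-fold, 665 to 1053), miR-34c-3p from 5.82 to 3785 RPM (651-fold, 507 to 850) and miR-34b-5p from 1.31 to 789 RPM (600-fold, 356 to 1103). miR-449a-5p, cut from an intron of Cdc20b on chromosome 13 (113037534 to 113037624), went from 35.5 to 3534 RPM (99.6-fold, 89.7 to 111). All 5 measured members of the 8 listed were higher; their median log2 ratio was 9.18, against -1.10 over every measured miRNA. With a minimum of 20 reads in place of 100, 6 members were measured, 5 of them higher and 1 lower. In the other libraries the same 5 members summed to 3197 RPM (primordial germ cells), 8291 RPM (oocyte) and 5431 RPM (zygote), all between the values of the pair. Summed, the list took 0.0932% of miRNA reads in spermatogonia and 23.6% in spermatozoa.

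miR-34b and miR-34c lie side by side on the minus strand of chromosome 9, at 51103562 to 51103645 and 51103034 to 51103110, outside other annotated genes on that strand. Both arms of both hairpins were higher, so the difference was not that of 1 arm. The hairpin of miR-34b, with the 5p and then the 3p arm in capitals, reads
Mir34b: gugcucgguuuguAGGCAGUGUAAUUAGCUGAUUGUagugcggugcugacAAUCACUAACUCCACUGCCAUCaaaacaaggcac
miR-34a-5p shares the seed of miR-34b-5p but comes from chromosome 4, and it read 73.6 RPM in spermatogonia and 143 RPM in spermatozoa, a log2 ratio of 0.96.

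Several abundant miRNAs with roles in many tissues were also higher in spermatozoa. miR-425-5p went from 423 to 11986 RPM (28.4-fold, 27.4 to 29.3), and its neighbour on chromosome 9, miR-191-5p, from 2517 to 17192 RPM (6.83-fold). miR-10a-5p, of the HoxB locus, went from 2099 to 16614 RPM (7.92-fold), while miR-10b-5p, with the same seed, differed by 1.78-fold, from 10678 to 19057 RPM. In the miR-29 family, known to target collagens and DNA methyltransferases, miR-29b-3p went from 93.9 to 877 RPM and miR-29c-3p from 9.66 to 115 RPM, and miR-29a-3p from 880 to 2952 RPM, below the 4-fold line. On the scale of all 4 classes miR-191-5p was lower in spermatozoa, as were 20 of the 70 miRNAs called higher, among them miR-16-5p (log2 ratio 2.20), while miR-425-5p, miR-10a-5p and miR-29b-3p kept their direction, with none of the 3 measured miR-29 members past 4-fold.

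miR-221-3p and miR-222-3p, which share a seed and are known for keeping spermatogonia undifferentiated, were higher in the spermatozoa library. miR-221-3p read 35.2 RPM in spermatogonia and 652 RPM in spermatozoa (18.5-fold, 16.4 to 21.0), and miR-222-3p 38.3 and 472 RPM (12.3-fold). miR-146a-5p, of the same list of miRNAs named in work on spermatogonial stem cells, went from 138 to 1538 RPM, whereas miR-146b-5p went from 5029 to 2531 RPM and miR-21a-5p from 9852 to 18857 RPM. Of the 10 entries of this list 7 were measured, 3 of them higher and 0 lower, at a median log2 ratio of 1.92. Over all 4 classes 0 were higher and 2 lower and the median turned to -0.94, and with the deposited normalised column 1 was higher and 1 lower, at -0.21.

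miR-7210-5p had 748 reads in spermatozoa and none in spermatogonia, where 3 reads would be 0.281 RPM, so it was at least 2185-fold higher; it also had no read in the other 3 libraries. It maps to chromosome 14 (24088877 to 24088899, plus strand), outside other genes on its strand. Near the top of the ratios stood further entries: miR-5101 went from 5.44 to 1279 RPM, miR-6931-5p from 0.375 to 123 RPM and miR-7068-3p from 1.03 to 127 RPM.
miR-7210-5p: uAACAUUGuagacaggcacaaag

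Markers of other cell types were not evenly spread between the libraries. The epithelial list, led by the miR-200 family, summed to 2051 RPM in spermatogonia and 23750 RPM in spermatozoa, and 8 of its 9 measured members (of 14 entries) were higher, with miR-203-3p the exception at 934 and 363 RPM. miR-141-3p went from 44.4 to 5900 RPM (133-fold, 121 to 146), miR-200a-3p from 146 to 3865 RPM and miR-200c-3p from 564 to 7404 RPM. The genes of miR-200b, miR-200a and miR-429 form 1 cluster on chromosome 4 (156053905 to 156055750), and its 5 measured arms were all higher; their median log2 ratio was 4.70. miR-200b-5p, the lowest of them at a log2 ratio of 2.42, was lower in spermatozoa on the scale of all 4 classes. Of the 8 epithelial members called higher, that scale left 2, with 1 lower, and the deposited normalised column 4, with 1 lower; the list median of 3.95 became 1.09 and 1.82. The measured epithelial markers summed to 1521 RPM in primordial germ cells, 10106 RPM in the oocyte and 10044 RPM in the zygote. miR-205-5p, a miRNA of stratified and glandular epithelium, went from 27.8 to 411 RPM.

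Blood markers were also higher. The erythroid list summed to 2031 RPM in spermatogonia and 19450 RPM in spermatozoa: miR-451a, which red cell precursors make without Dicer, went from 1294 to 15832 RPM and miR-144-3p, from the same transcript, from 8.07 to 539 RPM. Of its 5 measured members 3 were higher, and its median log2 ratio of 2.41 turns to -0.45 on the scale of all 4 classes. The leukocyte list summed to 304 and 3106 RPM, with 4 of 5 measured members higher, miR-142-3p from 195 to 2304 RPM and miR-223-3p from 16.7 to 264 RPM among them. Over all 4 classes 1 leukocyte member was higher and 1 lower, and the median of 3.56 became 0.70. The neuronal list had 3 of 6 measured members higher and 1 lower, from miR-9-3p (3.19 and 60.8 RPM) to miR-129-5p (180 and 1.64 RPM). Its median log2 ratio of 1.32 turned to -1.54 on the scale of all 4 classes, with 0 higher and 3 lower.

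The remaining marker lists went in different directions. miR-126a, of endothelium, was lower in both arms, miR-126a-3p with 6501 RPM in spermatogonia and 183 RPM in spermatozoa. The list of smooth muscle and peritubular cells, nearly all miR-143-3p, summed to 233110 and 230783 RPM, and miR-143-3p was the leading miRNA of both libraries. Muscle markers summed to 329 and 954 RPM, with 1 of 3 measured members higher and 1 lower and a median log2 ratio of 1.61 (-1.25 on the scale of all 4 classes), and neuroendocrine markers to 3238 and 2674 RPM, with miR-375-3p going from 59.0 to 541 RPM. miR-122, of liver, was at 0 in both libraries, and so were all 6 entries of miR-302 and miR-367, markers of pluripotent cells. The part of these other cell types in the differences between the libraries was not tested. With the members of all marker lists left out of entries and totals, an alternative chosen after seeing the data, 53 of 434 miRNAs were higher and 164 lower.

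**Figure D3:**
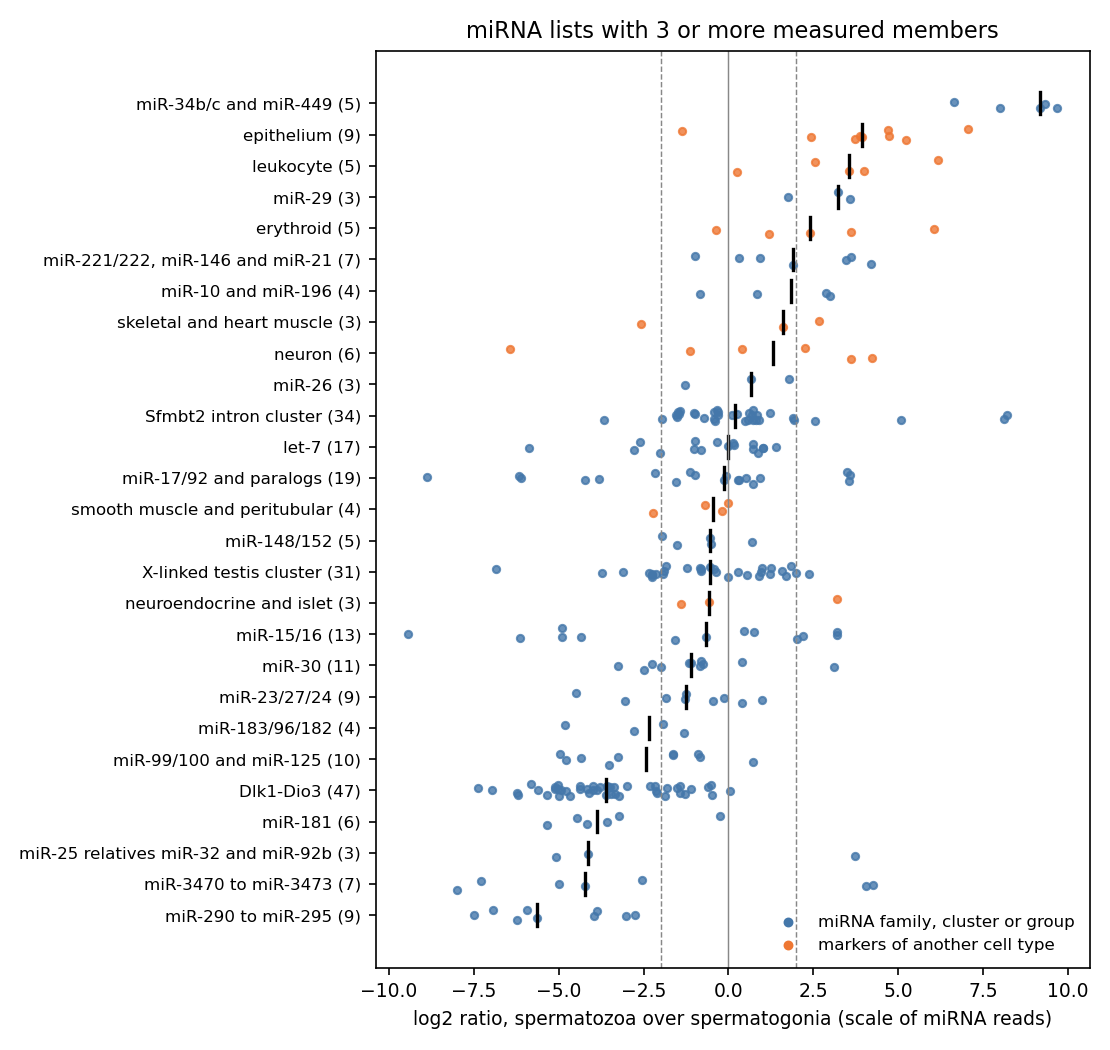
Log2 ratio of spermatozoa over spermatogonia (x axis, scale of miRNA reads) for the measured members of each miRNA list with 3 or more of them (number in brackets), 1 point per miRNA; black bars mark list medians and dashed lines 4-fold. The miR-34 list has its median at 9.18 and the miR-290 cluster at -5.65, and 3 of the 5 medians past 4-fold higher are marker lists, of which the erythroid one changes sign on the scale of all 4 classes.

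Among the miRNAs lower in spermatozoa were several genomic clusters with most of their measured members lower. Other clusters did not share this: Mir25 to Mir106b had 1 of 6 lower and Mir500 to Mir532 0 of 4. The miR-290 cluster of chromosome 7, known from embryonic stem cells and primordial germ cells, had 9 measured of 14 entries, and all 9 were lower. Its median log2 ratio of -5.65 was -3.87 with entries at 0 taken at their bound. With a minimum of 20 reads 12 of 13 were lower and the median was -3.95. miR-291a-3p read 753 RPM in spermatogonia and 5.75 RPM in spermatozoa (131-fold, 63.5 to 326), miR-295-3p 324 and 20.6 RPM. Summed over the AAGUGCU seed, the level was 1158 and 37.8 RPM, 30.6-fold lower (22.9 to 41.8).

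The imprinted Dlk1-Dio3 region of chromosome 12, whose miRNAs are expressed from the maternal chromosome, had 36 of 47 measured members lower and 0 higher, out of 90 entries. The summed level was 35067 RPM in spermatogonia and 3404 RPM in spermatozoa, and the median log2 ratio -3.61 (-3.21 with entries at 0 at their bound). The leading member, miR-127-3p, read 17254 and 499 RPM (34.6-fold lower, 31.9 to 37.5), and miR-541-5p 1836 and 32.1 RPM. miR-540-3p (68.6 RPM in spermatogonia) and miR-370-3p (51.8 RPM) had no read in spermatozoa, at least 27.8-fold and 21.0-fold lower. miR-136-5p, with 110 and 113 RPM, was the only measured member with a ratio above 1 on the scale of miRNA reads. The Mir770 to Mir136 stretch (109563692 to 109595388) had 8 of 10 measured members lower and the Mir379 to Mir3072 stretch (109709060 to 109747960) 25 of 33.

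On the X chromosome the stretch from Mir450b to Mir322 (53047997 to 53054349, minus strand) had all 8 measured members lower, at a median log2 ratio of -5.40. miR-322-5p, a relative of miR-16 that slows the cell cycle, read 2466 and 121 RPM, and miR-503-5p 436 and 5.75 RPM (75.7-fold lower). The other arm of miR-322, miR-322-3p, had 3040 reads in spermatogonia (285 RPM) and none in spermatozoa, where 3 reads would be 2.47 RPM, so it was at least 116-fold lower. Abundant relatives from autosomes went the other way: miR-16-5p read 3097 and 14226 RPM, and miR-15b-5p 214 and 1970 RPM. Both share the AGCAGCA seed with miR-322-5p, and the summed level of that seed was 6533 RPM in spermatogonia and 18217 RPM in spermatozoa. On the scale of all 4 classes that sum and miR-16-5p were lower in spermatozoa and miR-15b-5p still higher.

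A second X-linked group had most of its members within 4-fold on the scale of miRNA reads. The cluster from Mir743 to Mir465 (66776757 to 66839125), abundant in the testis and known to escape, in part, the silencing of the X chromosome in meiosis, had 7 of 28 measured members lower and 1 higher, and a median log2 ratio of -0.39. Its sum was 105028 RPM in spermatogonia and 34947 RPM in spermatozoa. miR-871-3p read 28247 and 243 RPM (116-fold lower, 104 to 131), while miR-881-3p read 1683 and 4049 RPM and miR-742-5p 25.8 and 134 RPM. On the scale of all 4 classes miR-881-3p and miR-742-5p were lower in spermatozoa. In the list of this cluster, matched by name, 8 of 31 measured members were lower and 1 higher, against 21 and 0 over all 4 classes and 19 and 0 with the deposited normalised column. Over the whole X chromosome 27 of 63 measured miRNAs with 1 known locus (42.9%) were lower, against 41.2% of 296 on autosomes, and 6.35% were higher, against 15.9%. These 296 do not cover every autosome and leave out miR-143-3p, the leading miRNA of both libraries. The X chromosome thus had about the share of lower miRNAs of the autosomes counted, and a smaller share of higher ones.

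Further groups hold much of the rest of the lower side. Mirlet7e and Mir125a, in an intron of Spaca6 on chromosome 17 (17830352 to 17830879), had all 4 measured arms lower. miR-99b-5p lies right beside them on the same strand (17830194 to 17830215). It was lower too, with 19550 RPM in spermatogonia and 705 RPM in spermatozoa (27.7-fold, 25.9 to 29.7). Over the ACCCGUA seed of miR-99a, miR-99b and miR-100 the sum was 22035 and 1870 RPM (11.8-fold lower, 11.3 to 12.3). The miR-181 family had 5 of 6 measured members lower, from miR-181b-5p (1397 and 33.7 RPM) to miR-181c-5p (392 and 332 RPM), which was not past 4-fold. Both arms of miR-202, a gonadal miRNA, were lower, miR-202-5p with 14473 and 99.5 RPM (145-fold, 122 to 175) and miR-202-3p with 508 and 3.29 RPM. The miR-183 cluster, which also serves sensory cells, summed to 41318 and 6894 RPM, with miR-182-5p 6.89-fold lower. Of other abundant miRNAs of spermatogonia, miR-24-3p read 36569 and 4439 RPM and miR-30d-5p 27907 and 5799 RPM, while miR-378a-3p, from 36421 to 15056 RPM, stayed within 4-fold. miR-298-5p (53.7 RPM) and miR-215-5p (51.8 RPM) had no read in spermatozoa, at least 21.8-fold and 21.0-fold lower.

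miR-3470a and miR-3470b, sequences that resemble B1 repeats, were among the 10 most abundant miRNAs of spermatogonia and far down the list in spermatozoa. miR-3470a read 29185 and 113 RPM (259-fold lower, 219 to 309) and miR-3470b 33694 and 216 RPM (156-fold lower, 138 to 177). In the same numbered series miR-3473b and miR-3473e went the other way, from 27.3 to 451 RPM and from 23.2 to 447 RPM; their near-equal reads (548.333 and 544.167 in spermatozoa) may be shared between similar sequences. miR-25-5p had 2088 reads in spermatogonia and none in spermatozoa, at least 79.4-fold lower, although its partner arm miR-25-3p read 5319 and 4842 RPM.
miR-3470b: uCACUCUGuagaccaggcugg

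Let-7, the family that holds back proliferation and marks differentiated cells, was nearly level on the scale of miRNA reads. Of its 17 measured members 4 were lower and 0 higher (13 and 0 over all 4 classes), and the sum, which on the scale of all 4 classes is lower in spermatozoa, was 88845 RPM in spermatogonia and 112146 RPM in spermatozoa. let-7f-5p read 28403 and 52047 RPM, let-7g-5p 9917 and 19887 RPM and let-7c-5p 24060 and 13721 RPM. The group of miR-148a, miR-148b and miR-152 had none of its 5 measured members past 4-fold on the scale of miRNA reads, miR-148a-3p reading 31630 and 21908 RPM; over all 4 classes all 5 were lower.

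Members of the miR-17/92 clusters went both ways. miR-19a-3p and miR-19b-3p were higher (34.6 and 412 RPM, 208 and 2331 RPM), as was miR-18a-5p (148 and 1743 RPM); all lie in the chromosome 14 cluster (115043671 to 115044506), and miR-19b has a further copy on the X chromosome. From the same transcript miR-20a-5p read 2197 and 2709 RPM and miR-17-5p 1341 and 610 RPM. Lower from it were miR-92a-1-5p (373 and 4.93 RPM) and miR-18a-3p (29.8 RPM and no read). Of 9 measured members placed in this cluster, miR-19b-3p not among them, 2 were higher and 2 lower. The more abundant miR-92a-3p was lower too, with 3605 and 802 RPM. From the X-linked copy miR-20b-5p read 111 and 5.48 RPM and miR-106a-5p 23.2 and 1.23 RPM. Over the AAAGUGC seed of these miRNAs the sums were 11046 and 9826 RPM, which differ by 1.12-fold. Of the 19 measured members of this list 3 were higher and 6 lower, shares near the 14.9% and 37.2% of all measured miRNAs. Over all 4 classes 0 were higher and 15 lower, and with the deposited normalised column 0 and 11.
miR-19b-3p: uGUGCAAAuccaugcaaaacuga
miR-20a-5p: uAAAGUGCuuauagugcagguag
miR-20b-5p: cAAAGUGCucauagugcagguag

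Placental and embryonic miRNAs of the Sfmbt2 intron, a large family of near-identical sequences, stayed mostly within 4-fold: 29 of 34 measured members did, with 4 higher and 1 lower. This holds on the scale of miRNA reads: over all 4 classes 3 were higher and 26 lower, and with the deposited normalised column 3 and 17. The exceptions were large. miR-466f-3p read 8.82 RPM in spermatogonia and 2625 RPM in spermatozoa (298-fold, 242 to 369) and miR-466i-5p 1.78 and 511 RPM (287-fold), while miR-297a-5p read 246 and 19.1 RPM. Reads may have been split between such copies, so single members are uncertain.

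Among measured miRNAs with a RefSeq mature sequence, 52 seeds were shared by 2 or more. Of these seeds, 11 were higher in their summed level and 13 lower. The highest was AUCACUA of miR-34b-3p and miR-34c-3p, at 13.1 and 9868 RPM (751-fold, 636 to 894). Next came AACACUG of miR-141 and miR-200a (190.7 and 9765 RPM, 51.2-fold), GGCAGUG of miR-34a, miR-34b and miR-449a (110 and 4466 RPM, 40.5-fold), GGCUGGA of miR-3473b and miR-3473e (17.8-fold) and GCUACAU of miR-221 and miR-222 (15.3-fold). The GGCAGUG sum and its rank leave out the family member miR-34c-5p (874 and 221799 RPM), which had no mature sequence in the reference used. The lowest was AUCAAAG of miR-291a-5p and miR-291b-5p, with 1124 reads and none (at least 42.8-fold lower), before the AAGUGCU seed. CCAUCGA of the miR-181 passenger arms was 16.2-fold lower, and the miR-99 and miR-181 guide seeds were 11.8-fold and 10.1-fold lower. On the scale of all 4 classes 3 seeds were higher and 39 lower; this alternative was chosen after seeing the data.

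The share of the 2 arms of a hairpin does not depend on how libraries are scaled. Among 130 hairpins with at least 100 reads in each library the 5p share differed by a median of 2.17 percentage points, and it was under 10 points apart in 92. It was at least 20 points higher in spermatozoa in 12 hairpins and at least 20 points lower in 6, and another arm led in 11. The plot of 5p shares names these hairpins.

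**Figure D4:**
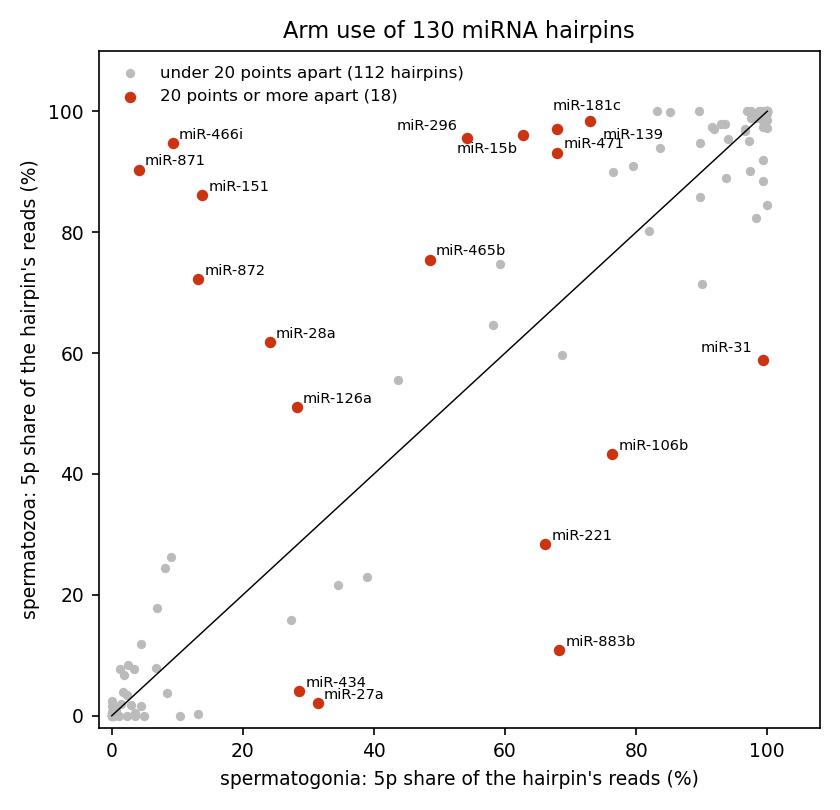
Share of a hairpin's reads that come from its 5p arm (%) in spermatogonia (x) and spermatozoa (y), 1 point per hairpin with at least 100 reads in each library; the line marks equal shares. Of 130 hairpins 18 are at least 20 points from equality, with miR-871 and miR-466i at the upper left and miR-883b and miR-221 below the line.

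miR-871 had the widest change. Its 5p arm took 4.11% of its reads in spermatogonia (4.04 to 4.18, of 313930 reads) and 90.3% in spermatozoa (89.2 to 91.3). The 3p arm went from 28247 to 243 RPM while the 5p arm went from 1210 to 2266 RPM. In the other libraries the 5p share was 5.71% (primordial germ cells), 3.46% (oocyte) and 5.05% (zygote), so spermatozoa stood apart from all 4. The hairpin lies on the minus strand of the X chromosome at 66810428 to 66810504, outside other genes on that strand; its arms are in capitals.
Mir871: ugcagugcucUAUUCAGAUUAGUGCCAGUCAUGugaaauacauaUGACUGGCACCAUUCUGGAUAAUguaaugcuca
miR-872, in an intron of Ift74 on chromosome 4 (94665157 to 94665237), went from 13.2% (12.5 to 13.9) to 72.3% (70.1 to 74.3) 5p reads, with 2.21% in primordial germ cells, 30.9% in the oocyte and 24.8% in the zygote.
Mir872: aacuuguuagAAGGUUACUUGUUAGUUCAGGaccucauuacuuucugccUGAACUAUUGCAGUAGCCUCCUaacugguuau
miR-151 went from 13.8% (13.5 to 14.1) to 86.1% (84.3 to 87.7) and miR-466i from 9.27% to 94.7%, though miR-466i rests on 205 reads in spermatogonia. miR-296 followed, from 54.2% to 95.5%, and stood at 92.5% in the oocyte and 89.1% in the zygote as well.

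In the other direction the 3p arm gained. miR-883b, also of the X-linked testis cluster, went from 68.2% (66.1 to 70.3) to 10.9% (6.48 to 16.9) 5p reads, on 156 reads in spermatozoa. miR-31 went from 99.4% to 58.8% (55.2 to 62.3): its 5p arm read 5444 and 363 RPM and its 3p arm 33.3 and 254 RPM, and its 5p share was at least 96.9% in each of the other 3 libraries. miR-221 went from 66.1% (63.3 to 68.9) to 28.4% (25.8 to 31.2), with 33.6% in the zygote, miR-106b from 76.3% to 43.3% and miR-27a from 31.4% to 2.13%.

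Base composition moved with the ratio. Of the 385 measured miRNAs matched to a RefSeq mature sequence, 167 had a GC content of 50% or more, and of these 13 were higher and 97 lower, at a median log2 ratio of -2.57. Of the 81 under 40% GC, 22 were higher and 13 lower, with a median of 0.56, and of the 137 in between 22 and 47, with a median of -1.04. In rising GC these groups held 13.5%, 32.6% and 19.3% of miRNA reads in spermatogonia and 18.3%, 24.6% and 6.69% in spermatozoa. The other reads, those of miR-34c-5p among them, were on entries without a matched sequence. The Spearman correlation of GC content with the log2 ratio was -0.39 and that of length -0.02, given as a description across miRNAs of 1 pair of libraries. By first base, U had 36 of 179 higher and a median of -0.84, A 12 of 99 and -1.95, C 6 of 65 and -1.14 and G 3 of 42 and -1.90. On the scale of all 4 classes the median of the group under 40% GC is below 0 too. Cell type and library preparation cannot be told apart here.

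Of 115 measured snoRNAs, 15 (13%) were higher in spermatozoa and 10 (8.7%) lower; the median log2 ratio was -0.01 and the Spearman correlation 0.68. This balance depends on the scale: edgeR TMM factors gave 10 higher and 14 lower, as did totals without the 5 leading entries, DESeq2 size factors 11 and 12, the deposited normalised column 3 and 38 and all 4 classes 2 and 59, where 3 of the 15 change direction. SNORD60, a C/D box snoRNA, held 92.6% of snoRNA reads in spermatogonia and 88.1% in spermatozoa, so that all others share the remainder. Of the 100 leading snoRNAs of each library 87 were shared.

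SNORD32 had the highest ratio of the measured snoRNAs. It read 570 RPM in spermatogonia and 62488 RPM in spermatozoa (110-fold, 106 to 114), where it was second to SNORD60. It lies in an intron of Rpl13a, a gene of the large ribosomal subunit that also hosts SNORD33, SNORD34 and SNORD35. These neighbours did not share its ratio: SNORD35 read 42671 and 12064 RPM, SNORD34 97.7 and 189 RPM and SNORD33 80.3 and 69.4 RPM. Other abundant snoRNAs past 4-fold, named after their values were seen, were SNORD105 (1144 and 7803 RPM) and SNORD102 (738 and 3015 RPM). SNORD83B read 208 and 5255 RPM (25.3-fold, 23.7 to 27.1) and the H/ACA snoRNA U98 14.1 and 166 RPM. SNORD37 (33.5 and 330 RPM), SNORD71 (9.52-fold) and SNORD16 (25.1 and 227 RPM) were also higher on the scale of snoRNA reads.

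Lower in spermatozoa was SNORD78, 1 of 5 measured snoRNAs from introns of Gas5, with 521 and 30.7 RPM (17.0-fold, 11.8 to 24.5), while the other 4 were within 4-fold (3 of the 5 were lower over all 4 classes), SNORD47 with 39.1 and 77.8 RPM among them. U2-19 read 187 and 10.7 RPM. SNORD113 and SNORD114, counted as 1 entry and encoded in the Dlk1-Dio3 region, read 115 and 7.78 RPM (14.8-fold lower, 7.47 to 34.5). SNORD64, of the imprinted Snurf-Snrpn region, read 39.0 and 2.92 RPM on 3 reads in spermatozoa, and SNORD70 286 and 27.2 RPM. scaRNA6, which works on spliceosomal RNA in Cajal bodies, read 1289 and 127 RPM (10.1-fold lower, 8.51 to 12.1). Of the 8 measured snoRNAs of Snhg1, 1 was higher, SNORD29 with 13.2 and 61.3 RPM; none was higher with edgeR TMM factors or without the 5 leading entries, and over all 4 classes 0 were higher and 6 lower. Over all classes of snoRNA, 14 of 85 measured C/D box entries were higher and 7 lower, and 1 of 19 H/ACA box entries was higher and 2 were lower. Over all 4 classes these counts were 2 and 44, and 0 and 10, and with edgeR TMM factors 9 and 9, and 1 and 3. Of all 115 measured snoRNAs, most of them C/D box, 13% were higher and 8.7% lower on the scale of snoRNA reads. With so few H/ACA box entries the counts do not set the boxes apart.

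The entries listed as piRNAs, the largest class of spermatozoa, were far more concentrated there. The leading entry of both libraries, PIR64428, held 12.1% of piRNA reads in spermatogonia and 36.3% in spermatozoa (120890 and 363421 RPM, 3.01-fold). The next, PIR64875 and PIR64874, neighbours by number, read 36394 and 36368 RPM in spermatogonia and 69740 and 69711 RPM in spermatozoa; with reads this near to equal they may be 1 sequence listed under 2 names. The 5 leading entries held 21.9% and 53.7%. It took 81 entries to reach 50% of piRNA reads in spermatogonia and 3 in spermatozoa, and 4261 and 267 entries to reach 90%. The plot of cumulative shares shows this beside the other classes.

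**Figure D5:**
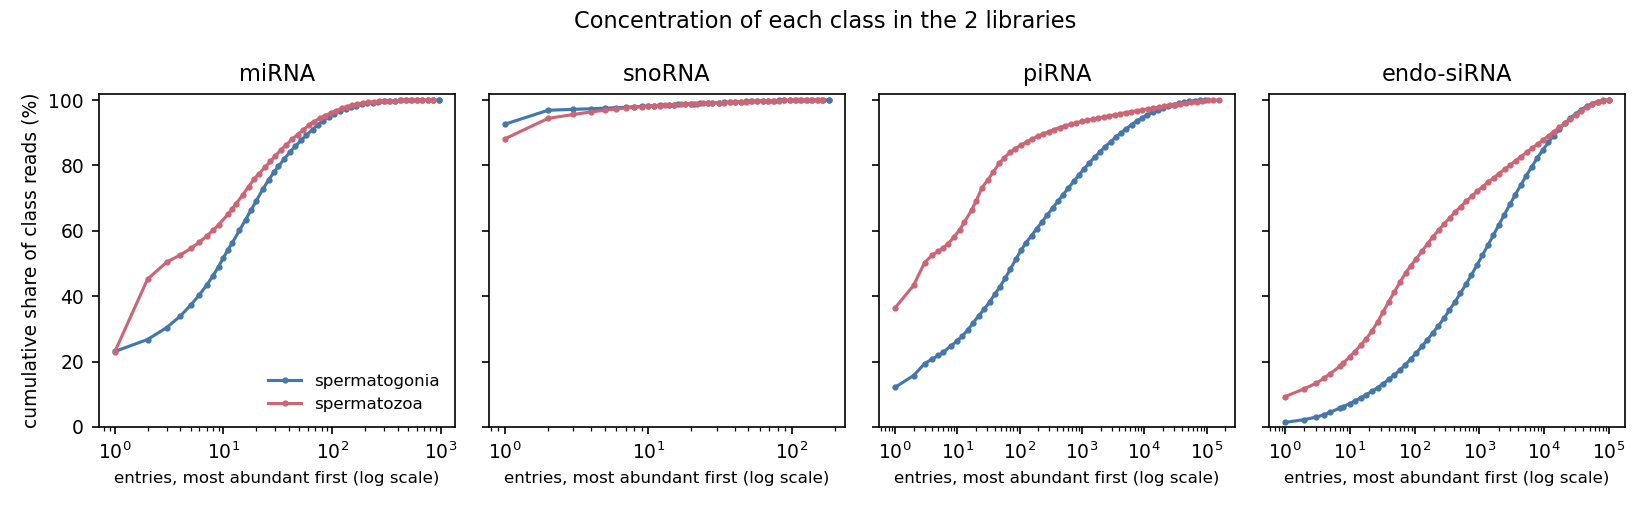
Cumulative share of the reads of a class (%, y axis) over its entries from the most abundant on (x axis, log scale), 1 panel per class and 1 line per library. For piRNAs and endo-siRNAs the spermatozoa line rises earlier (3 piRNA entries against 81 reach 50% of reads), while the snoRNA lines start at 92.6% and 88.1%.

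Of 7071 measured piRNA entries 1212 (17.1%) were higher in spermatozoa and 4237 (59.9%) lower, at a median log2 ratio of -3.06. Other scalings moved this split: all 4 classes gave 1602 and 3095, edgeR TMM factors 1766 and 2698, DESeq2 size factors 1708 and 2844 and the deposited normalised column 1879 and 2478. The Spearman correlation across measured entries was -0.11, a value that the minimum of 100 reads over the pair can push down, since 689 entries passed it with no whole read on 1 side. Of the most abundant entries, 51 of the leading 100 of each library were the same, and the leading 100 of spermatogonia held 79.2% of the piRNA reads of spermatozoa.

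The names of the entries split them into kinds with different profiles. Names that begin with PIR covered 51.9% of piRNA reads in spermatogonia and 72.3% in spermatozoa, and of 2476 measured 1045 (42.2%) were higher and 1017 (41.1%) lower. Without the 5 leading PIR entries of each library that share went from 30.3% to 18.7% of piRNA reads, the other direction. Names that begin with mmur covered 47.9% and 27.6%, and of 4537 measured 160 (3.53%) were higher and 3199 (70.5%) lower. Of 58 measured entries named for the mitochondrial chromosome 7 (12.1%) were higher and 21 (36.2%) lower, against 17.1% and 59.9% of all measured piRNA entries. All entries so named, measured or not, held 0.214% of piRNA reads in spermatogonia and 0.166% in spermatozoa. The 7 higher ones are neighbours by number, from mmur001054002chrM (3.75 and 28.4 RPM) to mmur001054008chrM (15.5 and 86.8 RPM). The next one down, mmur001054001chrM, read 3.19 and 12.2 RPM. The next numbers up fell just short of 4-fold, from mmur001054009chrM (27.2 and 99.4 RPM, 3.65-fold) to mmur001054014chrM (32.5 and 113 RPM, 3.49-fold).

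At the high end PIR24546 had no read in spermatogonia and 7516 reads in spermatozoa (413 RPM, at least 984-fold), and PIR232802 none and 6483 reads (356 RPM, at least 848-fold). PIR236653, PIR200959 and PIR232333 followed, with none in spermatogonia and 271, 219 and 140 RPM in spermatozoa. At the low end mmur001229210 had 6504 reads in spermatogonia (909.5 RPM) and under 1 in spermatozoa, and mmur001054641 10339 reads (1446 RPM) and 2.46. PIR213213 had 1620 reads (227 RPM) and none, at least 1375-fold lower. mmur000931865 and mmur001173162, at 182.2 and 164.4 RPM in spermatogonia, also had none. Such entries are single names in long lists, and what locus or repeat each comes from was not analysed here.

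Runs of neighbouring numbers with near-equal reads were common. Entries mmur000783636 to mmur000783644, 9 in a row, averaged 2630 RPM in spermatogonia and 11050 RPM in spermatozoa. The 6 entries from mmur000923897 to mmur000923902 averaged 6913 and 3715 RPM, and the 4 from mmur001134775 to mmur001134778 averaged 10102 and 9378 RPM. With runs within 10% of their neighbour counted as 1, the 7071 entries became 5837, of which 1116 were higher and 3513 lower.

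Of 6137 measured endo-siRNA entries 932 (15.2%) were higher in spermatozoa, 4616 (75.2%) were lower and 589 lay between. The median log2 ratio was -5.13 and the Spearman correlation -0.30, and 2012 measured entries had no whole read on 1 side, 1787 of them in spermatozoa. These values depend on the minimum of 100 reads, which such entries pass through 1 library alone. With a minimum of 20 reads 3741 entries were higher and 13547 lower, at a median of -3.56. With a minimum of 1 read 39294 were higher and 27154 lower, at a median of -0.26. At that minimum, given the pseudocount added to the reads, 1 read against none is past 4-fold only in spermatozoa, which had fewer endo-siRNA reads. The split and the median at a minimum of 1 read therefore cannot be read as a result. Of the 100 leading entries of each library 2 were shared. Those of spermatogonia held 22.0% of endo-siRNA reads there and 1.58% in spermatozoa, and those of spermatozoa held 50.7% there and 1.71% in spermatogonia. Over all entries the overlap was wider: 49894 had reads in both libraries, 48837 in spermatogonia alone and 49634 in spermatozoa alone. Entries seen in 1 library alone held 19.1% of endo-siRNA reads in spermatogonia and 22.5% in spermatozoa.

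The leading entry of spermatozoa, mmur000042018, had 365.5 reads in spermatogonia and 126676 in spermatozoa (867-fold, 781 to 962), where it took 92451 RPM or 9.25% of the class. mmur000878656 read 609 and 24347 RPM, and mmur000483664 had none and 16348 RPM (at least 18677-fold). mmur000137958 read 42.5 and 15267 RPM and mmur000134011 76.5 and 14343 RPM. On the other side the leading entry of spermatogonia, mmur001272954, read 13736 and 428 RPM (32.1-fold lower, 29.6 to 34.8), and mmur001009920 8686 and 7.30 RPM. mmur000681034, mmur000681035 and mmur000681036, neighbours by number, read 7284 to 7431 RPM and 5.52 RPM each. mmur000598990 had 12988 reads (3790 RPM) and none, at least 1731-fold lower, and mmur000998533, at 3665 RPM in spermatogonia, had none either. At the high end mmur000001579 had no read in spermatogonia and 10653 RPM in spermatozoa.

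Entries named for unplaced sequence (chrUn) stood out among the endo-siRNAs. They held 0.289% of endo-siRNA reads in spermatogonia and 4.61% in spermatozoa, and of 45 measured 31 (68.9%) were higher and 13 (28.9%) lower, against 14.8% and 75.6% of the 6092 others. mmur000506747chrUn had under 1 read in spermatogonia and 7507 RPM in spermatozoa, mmur000317426chrUn none and 4891 RPM and mmur000506951chrUn none and 2850 RPM. Many of the 45 are neighbours by number and may share reads. Without the 5 leading chrUn entries of each library the shares were 0.181% and 1.61%.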

How the data were processed

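Members and lists were chosen with earlier results of these data known. Read numbers are expected counts as deposited by the authors, many of them not whole: 0% of miRNA values had a fraction in spermatogonia and 17.7% in spermatozoa, yet miR-465a-3p, miR-465b-3p and miR-465c-3p had 18163, 36325 and 36325 reads in spermatogonia, the proportions of spermatozoa (432.93, 865.87 and 865.87). The normalised column, TMM per the file headers, is a signal deposited by the authors that equals reads times 1 factor per library (0.672 for spermatogonia and 1.35 for spermatozoa); it was used as an alternative only. Bowtie 0.12.7, DESeq and mm10 are named, without roles, per the submitters' processing notes; which annotation defined the classes, and how multi-mapping reads were counted, is not stated in the labels.

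Entries absent from a table were set to 0. Of the snoRNA entries, 6 that name no single snoRNA, with 0.824% and 0.896% of reads, were left out. RPM is per 1000000 reads of the class in the library. Log2 ratios used a pseudocount of 0.5 reads, which moves a ratio toward the library with fewer reads of the entry. Fold changes of low entries can thus be understated or overstated on that scale. Folds come from the reads themselves, with the exact interval of 2 Poisson counts given their sum after rounding to whole reads, and shares have Clopper-Pearson intervals. Against 0 whole reads a fold is a lower bound from 3 counts. Ratios and intervals were tested on simulated data. Named were the entries with the highest and lowest ratios (12 miRNAs, 6 snoRNAs and 5 of the other classes a side), the most abundant, list members, and the 5 hairpins and 5 seeds that moved most each way; a few further entries were named after their values were seen, such as miR-146b-5p, SNORD47 and runs of neighbouring names. Loci come from GENCODE vM21 and RefSeq names on GRCm38.p6. Python 3.11.15 with pandas 2.3.3, NumPy 2.4.6 and SciPy 1.17.1 was used, with edgeR 4.0.16 and DESeq2 1.42.0 for scaling factors on rounded reads. The piRNA and endo-siRNA sequences were not analysed here.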

Additional observations from a re-analysis of the deposited data

How the results depend on the processing

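There was 1 library a side, so no replicate could be left out. No paired analysis was possible because the groups hold 1 library each and the result comes from no test. Scaled to all 4 classes, 18 miRNAs were higher and 358 lower (70 and 175 per class), 2 and 59 snoRNAs (15 and 10), 3 and 39 seeds (11 and 13), and 1 and 23 list medians (5 and 7). Among list medians past 4-fold, the erythroid one alone changed sign, from 2.41 to -0.45. With the deposited normalised column the counts were 25 and 312 miRNAs, 3 and 38 snoRNAs, 1879 and 2478 piRNA entries, and 1 and 16 list medians. edgeR TMM factors left 2698 piRNA entries lower (4237).

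A minimum of 20 reads gave 112 higher miRNAs, 25 lower snoRNAs, 6223 and 12453 piRNA entries and 3741 and 13547 endo-siRNA entries; the snoRNA correlation was then 0.81 (0.68 at 100 reads). A minimum of 1 read gave 361 higher miRNAs, more than its 252 lower ones, 27 and 28 snoRNAs, 25709 and 43984 piRNA entries, and 39294 and 27154 endo-siRNA entries, again more higher than lower, with 4 list medians lower. At that minimum, given the pseudocount, 1 read against none is past 4-fold only in the library with fewer reads of the class. The direction of these splits therefore cannot be read as a result. A minimum of 500 reads gave 115 lower miRNAs, 6 lower snoRNAs, 246 and 1102 piRNA entries and 260 and 1007 endo-siRNA entries. At 2-fold 37 snoRNAs were higher and 28 lower. Hairpins whose 5p share was 20 points higher numbered 22 with a minimum of 20 reads and 6 with 500 (12 with 100); 21 were lower with 20 reads (6), and another arm led in 27 and 6 (11).

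Without the 5 leading entries of each class, miRNAs, snoRNAs, piRNAs and endo-siRNAs took 39.8%, 0.792%, 37.4% and 22.0% in spermatogonia and 5.25%, 0.278%, 83.0% and 11.5% in spermatozoa. With runs of near-equal neighbours counted once they took 43.9%, 21.1%, 22.4% and 12.6%, and 7.19%, 6.07%, 79.3% and 7.48%; the 5 leading entries then held 24.9% and 64.7% of piRNA reads and 4.79% and 17.6% of endo-siRNA reads. The cause of these shifts was not tested beyond what each alternative itself leaves out or divides by. Of the log2 ratios of the entries at the high and low ends of each class, under the scalings and the other pseudocount, 329 of 336 kept their direction and side of 4-fold, and 7 kept the direction alone.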

Other observations

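Outside the pair, the 100 leading endo-siRNA entries of spermatozoa, 50.7% of that library's reads in the class, took 24.2% of the endo-siRNA reads of primordial germ cells, 0.415% of those of the oocyte and 0.530% of those of the zygote. The 100 leading entries of spermatogonia took 22.0% of endo-siRNA reads there, 13.1% in primordial germ cells, 29.6% in oocytes and 30.0% after fertilisation, in zygotes. The mmur000042018 entry that leads in spermatozoa read 43084 RPM in primordial germ cells and 19.6 RPM in the oocyte. These values are descriptions of single libraries.

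Limits remain. Each cell type is 1 library, so the spread between animals or preparations is unknown. The lower count of miRNA reads in spermatozoa (1216358 against 10657432) makes 3 reads worth 2.47 RPM there and 0.281 RPM in spermatogonia, so an entry at 0 in spermatozoa was not detectable below that level. Entries of similar sequence can share reads.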
